A study of Homo sapiens with 10 samples.

Results

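The collagen genes of the human genome were followed in the colorectal cancer cell line HCT116 and in its derivative DNMT1 KO, made by targeting DNMT1, which encodes the methyltransferase that copies DNA methylation at replication. A gene was included when it was protein-coding and its symbol was COL, a number, A and a number. Of the 58884 genes in the count tables, 44 were collagen genes by this rule. The rule reads only names and biotypes, but the family was chosen with earlier results of these data known. By collagen class, 11 were fibrillar, 6 formed the basement membrane collagen (type IV) and 27 belonged to the other classes. Gene symbols and coordinates are those of GENCODE release 44 on hg38, matched by Ensembl gene ID. Polyadenylated RNA was sequenced from 6 HCT116 libraries (genotype WT, replicates 1, 2, 3, 7, 8 and 9) and from 4 DNMT1 KO libraries (replicates 1 to 4), both grown in the same medium with no further treatment named. The DNMT1 KO line is hypomorphic and, per the study's description, still makes a truncated DNMT1, and the libraries come from this one line, so that the genotype and the history of the line cannot be told apart. The labels place the libraries in 4 batches. Batch 1 holds replicate 1 of each cell line, batch 2 holds replicates 2 and 3 of each, batch 3 consists of DNMT1 KO replicate 4 and batch 4 of HCT116 replicates 7, 8 and 9. The study describes the replicates as independent cultures, so p-values measure the spread between cultures of each line.

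Collagens are secreted or membrane-bound proteins whose chains wind around each other into helical trimers, built from the same chain or from products of different genes. Fibrillar collagens such as types I, III and V form the banded fibrils of connective tissue and are made mainly by fibroblasts and other mesenchymal cells. Type IV collagen forms the sheet-like network of basement membranes, on which epithelial cells of the colon rest. The other classes include the microfibrils of type VI, the collagens that decorate fibrils (types IX, XII, XIV and XVI), the short-chain networks (types VIII and X), the anchoring fibrils of type VII, the multiplexins (types XV and XVIII) and collagens that span the cell membrane (types XIII, XVII, XXIII and XXV). Collagen chains must be hydroxylated, folded and trimmed before fibrils form, so enzymes of these steps, collagen receptors and laminins were followed as well.

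DNMT1, the targeted gene, was at 89.8, 135 and 263 CPM (counts scaled to a common library total after TMM normalisation) as the lowest, median and highest of the HCT116 libraries and at 14.1, 19.9, 21.5 and 22.3 CPM in DNMT1 KO replicates 1 to 4, with no overlap. The HCT116 libraries held 35418732 to 85991812 counts each and those of DNMT1 KO 26700853 to 55732013. Even numbers made up 64.4 to 70.0% of the low counts in 9 libraries, compared with 39.9% in replicate 4 of DNMT1 KO. Whether the former count both mates of a pair was not tested, and the counting intervals given here treat each count as independent and cover counting error only. Reads were mapped without splicing, and collagen exons are short: the share of the exonic length at which a 50-base read fits inside a single exon ran from 52.0% for COL11A2 to 95.9% for COL8A2, and the median exon of most fibrillar collagen genes, COL3A1, COL5A1 and COL5A2 among them, was 54 bases long. COL11A2 lies in a stretch of chromosome 6 in which 167 of 180 coding genes had no counts in any library, among them the housekeeping genes TUBB and DDX39B, so its 0 counts cannot be read as a lack of expression.

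The first question was which collagen genes differed between the cell lines. Of the 44 genes, 25 had enough counts to be tested, 8 of them were called higher in DNMT1 KO and 1 was called lower, at an adjusted p under 0.05 (edgeR quasi-likelihood, Benjamini-Hochberg over all 19279 genes tested) and a log2 fold change beyond 1 in size. Over all genes tested, 7.42% were called higher and 6.49% lower. The genes called higher were COL3A1, COL5A1 and COL5A2 among the fibrillar collagens, COL4A2 among the basement membrane collagens and COL6A3, COL8A2, COL14A1 and COL26A1 among the others, and the gene called lower was COL13A1. No overlap between the libraries of the groups, with DNMT1 KO above, was seen for 9 tested collagen genes, the 8 called higher and COL4A4, against 8.4% of all genes tested. With DNMT1 KO below, it was seen for COL13A1 alone among the tested collagen genes, against 6.79% of all genes tested. The median log2 fold change of the 25 genes was 0.46, against -0.07 over all genes tested. COL3A1, COL5A1, COL4A2, COL8A2 and COL14A1, with HCT116 counts near 0, passed the filter on low counts through their DNMT1 KO libraries alone. Their adjusted p-values are thus those of genes kept for being high in DNMT1 KO, and are no separate evidence of it. Neither the median nor the counts of calls and of non-overlaps therefore describe all 44 genes. In these bulk libraries, fewer cells with a transcript and less of it per cell cannot be told apart. Over all genes 1431 were called higher and 1251 lower, against 1878 and 956 when libraries were scaled by their totals alone, a scaling that moved the median log2 fold change of all genes from -0.07 to 0.14 and gave 9 collagen genes called higher and 1 lower.

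**Figure D1:**
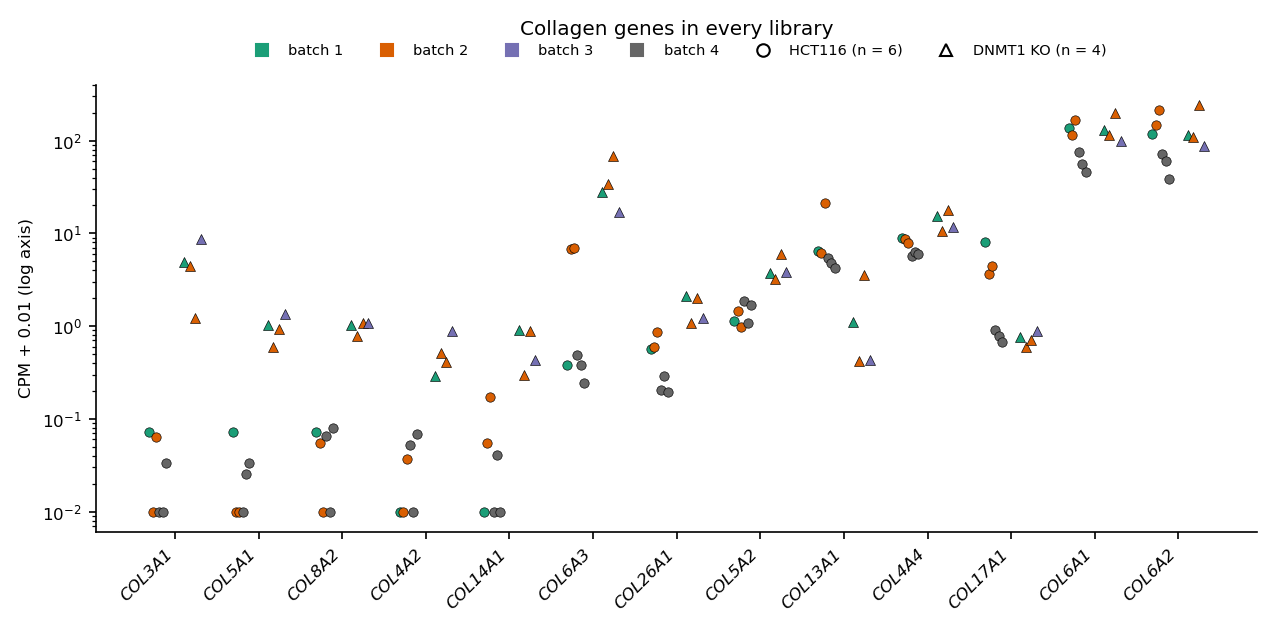
CPM plus 0.01 on a log axis for each of the 9 collagen genes called and for COL4A4, COL17A1, COL6A1 and COL6A2, with circles for the 6 HCT116 libraries, triangles for the 4 DNMT1 KO libraries and colours for the batches of the labels. COL3A1, COL5A1, COL8A2, COL4A2 and COL14A1 were at or near 0 in every HCT116 library, whereas COL6A3 and COL17A1 split the HCT116 libraries by batch and COL6A1 and COL6A2 overlapped between the cell lines.

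DNMT1 copies methylation at CpG dinucleotides, and the CpG content of the stretch before the start site is shown here for genes that differed between the cell lines. RefSeq promoter sequences (GRCh38) had an entry for 32 of the 44 genes, which does not include COL3A1, COL5A2 or COL14A1. The stretches below are taken from the 250 bases upstream of the RefSeq start site, shortened where an exon of the gene's own model in the count files reaches into them, written 5′ to 3′ on the gene's strand with each CpG in capitals. COL5A1, COL8A2 and COL26A1 are shown as genes called higher, COL13A1 as the gene called lower and COL17A1 as the gene nearest to a lower call. The last stretch is the sequence shared by the divergent start sites of COL4A1 and COL4A2, which lie 126 bases apart, and is written on the strand of COL4A2.
COL5A1 (chr9:134641553-134641773, plus strand): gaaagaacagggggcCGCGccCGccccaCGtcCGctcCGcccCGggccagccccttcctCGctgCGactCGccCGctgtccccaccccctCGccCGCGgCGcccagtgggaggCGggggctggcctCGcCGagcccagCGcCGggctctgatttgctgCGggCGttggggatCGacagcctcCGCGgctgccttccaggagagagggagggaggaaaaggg
COL8A2 (chr1:36125223-36125472, minus strand): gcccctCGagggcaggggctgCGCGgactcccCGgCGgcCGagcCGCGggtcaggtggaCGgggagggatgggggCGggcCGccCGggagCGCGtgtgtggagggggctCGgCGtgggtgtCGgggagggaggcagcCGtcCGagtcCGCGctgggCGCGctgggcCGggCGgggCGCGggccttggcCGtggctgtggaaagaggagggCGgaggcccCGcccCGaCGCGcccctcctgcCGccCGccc
COL26A1 (chr7:101362625-101362874, plus strand): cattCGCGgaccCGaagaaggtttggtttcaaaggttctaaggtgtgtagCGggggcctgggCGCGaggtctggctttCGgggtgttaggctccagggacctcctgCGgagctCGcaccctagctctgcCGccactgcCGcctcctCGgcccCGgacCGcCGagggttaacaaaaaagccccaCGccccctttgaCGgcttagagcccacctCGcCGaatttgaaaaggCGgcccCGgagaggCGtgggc
COL13A1 (chr10:69801656-69801866, plus strand): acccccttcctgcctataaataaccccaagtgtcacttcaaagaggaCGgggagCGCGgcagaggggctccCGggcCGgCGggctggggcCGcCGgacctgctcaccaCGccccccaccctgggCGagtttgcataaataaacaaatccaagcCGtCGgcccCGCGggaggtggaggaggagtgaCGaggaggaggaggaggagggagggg
COL17A1 (chr10:104085958-104086130, minus strand): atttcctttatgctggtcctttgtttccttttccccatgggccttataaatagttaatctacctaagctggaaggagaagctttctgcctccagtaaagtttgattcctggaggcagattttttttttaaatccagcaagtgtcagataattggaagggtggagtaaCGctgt
COL4A1 and COL4A2 (chr13:110307158-110307235, plus strand): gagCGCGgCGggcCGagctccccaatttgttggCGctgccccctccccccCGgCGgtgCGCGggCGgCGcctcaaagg

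The printed stretches held 25 CpG for COL5A1, 35 for COL8A2, 22 for COL26A1, 15 for COL13A1, 1 for COL17A1 and 11 between COL4A1 and COL4A2. In the full 250 bases, the 5 genes called higher that have an entry held 3 to 40 CpG with a median of 29, the 13 tested genes that were not called held 1 to 37 with a median of 17, and the 13 untested genes held 1 to 38 with a median of 11. All 35116 promoters of the table had a median of 11. COL6A3 (3 CpG) stood apart from the other 4 genes called higher, which held 22 to 40. Of its 250 bases, however, 211 lie inside exons of the gene model used for counting, against 0 to 48 for the other 4. They are thus mostly not upstream of that model. The letters TATAAA, searched on both strands, were present in 6 of the 32 collagen promoters and in 10.7% of all promoters. They were found in COL13A1, in the tested but uncalled COL17A1, COL6A2 and COL7A1, and in the untested COL10A1 and COL6A6. None of the 5 genes called higher held them, too few genes to set against the share of all promoters. These counts describe letters of the reference sequence, and methylation was not analysed here.

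Of the 11 fibrillar collagen genes, 5 were tested, and 3 of these were called higher. COL3A1, the chain of type III collagen (ENSG00000168542, chromosome 2, 188974373 to 189012746, plus strand), was at 0 counts in 3 HCT116 libraries and at 2 counts in each of the other 3, or 0, 0.0116 and 0.0619 CPM as the lowest, median and highest. In DNMT1 KO it was at 193, 252, 76 and 252 counts in replicates 1 to 4, or 4.87, 4.48, 1.21 and 8.76 CPM. Every DNMT1 KO library lay far above every HCT116 library, but DNMT1 KO replicate 3 was several times below the other 3 libraries of its group. It rose by a log2 fold change of 7.84 (edgeR adjusted p = 5.20e-06, SE 0.78). Summed over libraries and divided by their summed totals, the DNMT1 KO level was 231 (95% counting interval 106 to 631) times that of HCT116, and the fitted fold depends on the prior count because HCT116 held only 6 counts in all. The log2 ratio of CPM plus 0.1 was 4.94 in batch 1 and 4.54 in batch 2, and with batches 1 and 2 alone and batch as a term the log2 fold change was 6.50.

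Type V collagen starts the assembly of fibrils, and the genes of both of its chains that passed the filter were called higher. COL5A1 (ENSG00000130635, chromosome 9, 134641803 to 134844843, plus strand) held 2, 0, 0, 0, 1 and 2 counts in HCT116 replicates 1, 2, 3, 7, 8 and 9, or 0, 0.00775 and 0.0619 CPM as the lowest, median and highest, and 1.01, 0.586, 0.920 and 1.36 CPM in DNMT1 KO replicates 1 to 4. The groups did not overlap, and the DNMT1 KO libraries lay within a narrow range. Its log2 fold change was 5.79 (edgeR adjusted p = 3.16e-05, SE 0.69), and the ratio of summed levels was 61.0 (95% counting interval 25.6 to 190.2). Without HCT116 replicate 1, which held 2 of the 5 counts, the log2 fold change was 6.39. COL5A2 (ENSG00000204262, chromosome 2, 189031898 to 189225312, minus strand) was already present in HCT116, at 0.963, 1.28 and 1.87 CPM, and was at 3.69, 3.20, 5.92 and 3.79 CPM in DNMT1 KO. Each DNMT1 KO library exceeded the highest HCT116 library. Its log2 fold change was 1.61 (edgeR adjusted p = 0.00246, SE 0.32), and the log2 ratio was 1.64 in batch 1 and 1.84 in batch 2. Within batch 2 alone it was 1.92 (edgeR adjusted p = 0.0782) and the call was lost, as it was by glmTreat, edgeR's test against the fold limit itself (edgeR adjusted p = 0.123). COL5A2 and COL3A1 lie 19151 bases apart on chromosome 2 on opposite strands. The third type V gene, COL5A3, was below the filter, with 41 counts over the HCT116 libraries and 28 over those of DNMT1 KO.

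COL1A1, the main chain of type I collagen, was not called. It was at 6.16, 12.3 and 19.5 CPM in HCT116 and 2.90, 5.51, 14.1 and 4.31 CPM in DNMT1 KO, with overlap between the groups (log2 fold change -0.90, edgeR adjusted p = 0.183, SE 0.42). DNMT1 KO replicate 3 was the highest of its group, and without it the log2 fold change was -1.54 (edgeR adjusted p = 0.0143), past the threshold. Its partner COL1A2 was not tested, with 0 counts in all 6 HCT116 libraries and 2, 8, 0 and 2 counts in DNMT1 KO replicates 1 to 4. Against a floor of 3 counts over all HCT116 libraries, the summed DNMT1 KO level was 7.17-fold higher. This value leaves out the counting error of DNMT1 KO. COL27A1, a fibrillar collagen of cartilage, was at 6.66 ± 2.63 CPM (SD, n = 6) in HCT116 and, in DNMT1 KO, at 5.33 ± 1.30 CPM (SD, n = 4), with a log2 fold change of -0.32 (edgeR adjusted p = 0.586). COL2A1, the cartilage fibril collagen, did not pass the filter, but its 9, 7, 16 and 4 counts in DNMT1 KO (0.227, 0.124, 0.254 and 0.139 CPM) lay above the 0.0929 CPM of the highest HCT116 library. COL11A1 and COL24A1 held at most 6 counts in any library.

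Type IV collagen is encoded by 3 pairs of genes that lie head to head, COL4A1 with COL4A2, COL4A3 with COL4A4 and COL4A5 with COL4A6. Of the 6 genes, 5 were tested and 1, COL4A2, was called higher. COL4A2 (ENSG00000134871, chromosome 13, 110305812 to 110513209, plus strand) held 0, 0, 1, 3, 0 and 5 counts in the HCT116 libraries, or 0, 0.0134 and 0.0581 CPM, and 11, 28, 25 and 25 counts in DNMT1 KO, or 0.278, 0.498, 0.397 and 0.869 CPM. The groups did not overlap, and the level stayed below 1 CPM in every library of either group. Its log2 fold change was 4.23 (edgeR adjusted p = 7.00e-04, SE 0.72), and the ratio of summed levels was 17.7 (95% counting interval 8.93 to 40.0). With batches 1 and 2 alone and batch as a term it was 5.14 (edgeR adjusted p = 0.00729), and without HCT116 replicate 9 it was 4.82. COL4A1, its partner in the common form of type IV collagen, was below the filter, with 8, 0, 0, 1, 8 and 6 counts in HCT116 and 2, 0, 10 and 2 counts in DNMT1 KO, and the ratio of summed levels was 1.09 (95% counting interval 0.519 to 2.21). Of the exonic bases of COL4A2, 95 are shared with antisense transcripts, from which its reads could not be told apart without a strand option.

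COL4A4 and COL4A3, chains of the type IV network of the kidney, were present at higher levels. COL4A4 was at 5.75, 7.15 and 8.97 CPM in HCT116 and 15.4, 10.7, 17.9 and 11.7 CPM in DNMT1 KO. All 4 DNMT1 KO libraries exceeded all 6 HCT116 libraries, and the log2 fold change of 0.94 (edgeR adjusted p = 0.0183, SE 0.25) passed the adjusted p but not the fold limit. With library totals alone as the scaling it was 1.15 and was called, and so it was without HCT116 replicate 1 or 2 or DNMT1 KO replicate 2 or 4 (1.01 to 1.05). COL4A3 was at 1.70 ± 0.990 CPM (SD, n = 6) in HCT116 and, in DNMT1 KO, at 2.37 ± 1.25 CPM (SD, n = 4), with overlap and no call (log2 fold change 0.49, edgeR adjusted p = 0.546). COL4A5 and COL4A6, the X-linked pair, had log2 fold changes of -0.60 and -0.51 (edgeR adjusted p = 0.280 and 0.407).

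Type VI collagen is assembled from the products of COL6A1, COL6A2 and a further chain, most often that of COL6A3. COL6A1 and COL6A2 were the most abundant collagen genes in both cell lines and were not called, whereas COL6A3 was called higher. COL6A3 (ENSG00000163359, chromosome 2, 237324003 to 237414328, minus strand) held 12, 302, 258, 34, 24 and 20 counts in HCT116 replicates 1, 2, 3, 7, 8 and 9, or 0.232, 0.423 and 6.90 CPM as the lowest, median and highest, and was at 27.8, 34.0, 68.5 and 16.9 CPM in DNMT1 KO. HCT116 replicates 2 and 3, which form batch 2, were more than 10 times above the other 4 HCT116 libraries, yet every DNMT1 KO library exceeded them. The log2 fold change was 3.88 (edgeR adjusted p = 0.00780, SE 0.91). The log2 ratio was 5.89 in batch 1 and 2.88 in batch 2, so that the size of the difference depended on which HCT116 libraries were compared, and with batches 1 and 2 and batch as a term the log2 fold change was 3.76 (edgeR adjusted p = 0.00475). Without HCT116 replicate 2 or 3 it was 4.49 or 4.52, and without batch 4 it was 2.96.

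COL6A1 was at 46.4, 95.1 and 166 CPM in HCT116 and 131, 116, 201 and 98.1 CPM in DNMT1 KO, and COL6A2 at 38.9, 95.5 and 214 CPM and 116, 109, 244 and 86.7 CPM. The groups overlapped for both genes, with DNMT1 KO replicate 3 the highest of all libraries. Their log2 fold changes were 0.46 (edgeR adjusted p = 0.441, SE 0.35) and 0.36 (edgeR adjusted p = 0.642, SE 0.43). Within batches the log2 ratios were -0.078 in batch 1 and 0.18 in batch 2 for COL6A1 and -0.029 in batch 1 and -0.035 in batch 2 for COL6A2, and without batch 4 the direction of both turned (-0.034 and -0.21). The remaining type VI genes, COL6A5 and COL6A6, held at most 4 counts in any library.

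COL8A2, a chain of the short-chain network collagen of the corneal Descemet membrane (ENSG00000171812, chromosome 1, 36095239 to 36125222, minus strand), held 2, 2, 0, 4, 0 and 6 counts in the HCT116 libraries, or 0, 0.0504 and 0.0697 CPM, and was at 1.01, 0.782, 1.08 and 1.08 CPM in DNMT1 KO. The groups did not overlap, and the 4 DNMT1 KO libraries were close to each other. The log2 fold change was 4.54 (edgeR adjusted p = 1.06e-04, SE 0.62), the ratio of summed levels was 23.4 (95% counting interval 13.6 to 43.7) and the log2 ratio was 2.78 in batch 1 and 3.07 in batch 2. Its partner chain COL8A1 held 6 counts over the HCT116 libraries and 9 over those of DNMT1 KO and was not tested. COL14A1, which binds to the surface of fibrils (ENSG00000187955, chromosome 8, 120059780 to 120373573, plus strand), held 0, 2, 6, 0, 2 and 0 counts in HCT116, or 0, 0.0155 and 0.160 CPM, and 36, 16, 55 and 12 in DNMT1 KO, or 0.909, 0.284, 0.873 and 0.417 CPM. Every DNMT1 KO library was above the HCT116 libraries, of which replicate 3 was the highest. The log2 fold change was 4.11 (edgeR adjusted p = 0.00347, SE 0.86), with a ratio of summed levels of 21.3 (95% counting interval 11.2 to 45.6). Without HCT116 replicate 3 the log2 fold change was 5.30, with batches 1 and 2 and batch as a term it was 3.27 (edgeR adjusted p = 0.0471), and within batch 2 alone it was 2.50 (edgeR adjusted p = 0.177) and the call was lost.

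COL26A1 (ENSG00000160963, chromosome 7, 101362875 to 101559024, plus strand) was at 0.186, 0.418 and 0.856 CPM in HCT116 and 2.12, 1.08, 2.02 and 1.22 CPM in DNMT1 KO. The groups did not overlap, but the HCT116 libraries of batches 1 and 2, at 0.557 to 0.856 CPM, lay above those of batch 4, at 0.186 to 0.279 CPM. The log2 fold change of 1.89 (edgeR adjusted p = 0.0134, SE 0.48) fell to 1.37 (edgeR adjusted p = 0.0875) with batches 1 and 2 and batch as a term and was then not called. Without DNMT1 KO replicate 1 it was 1.72 (edgeR adjusted p = 0.0577), which also ended the call, as did glmTreat (edgeR adjusted p = 0.138).

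COL13A1, a collagen that spans the membrane at cell contacts (ENSG00000197467, chromosome 10, 69801880 to 69964275, plus strand), was the gene called lower. It was at 4.18, 5.82 and 21.0 CPM in HCT116 as the lowest, median and highest and at 1.11, 0.409, 3.52 and 0.417 CPM in DNMT1 KO. Each DNMT1 KO library was below each HCT116 library, with replicate 3 the highest of both groups. The log2 fold change was -2.53 (edgeR adjusted p = 0.0173, SE 0.67), and the log2 ratio was -2.45 in batch 1 and -2.73 in batch 2. With batches 1 and 2 and batch as a term it was -2.71 (edgeR adjusted p = 0.0389). Leaving out DNMT1 KO replicate 1, 2 or 4 ended the call, with log2 fold changes of -2.47 (edgeR adjusted p = 0.0564), -2.23 (edgeR adjusted p = 0.0554) and -2.25 (edgeR adjusted p = 0.0509). Without DNMT1 KO replicate 3 it was -3.63, and without HCT116 replicate 3 it was -1.94, both called. Within batch 2 alone it was -2.78 (edgeR adjusted p = 0.151), in replicates 1 to 3 -2.73 (edgeR adjusted p = 0.0511) and by glmTreat the adjusted p was 0.0813, none of them called.

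COL17A1, the membrane-spanning collagen of the hemidesmosomes that fasten epithelial cells to the basement membrane, missed the call (log2 fold change -2.08, edgeR adjusted p = 0.0553, SE 0.69). It was at 8.14 CPM in HCT116 replicate 1, 3.65 and 4.44 CPM in replicates 2 and 3 and 0.662 to 0.905 CPM in the batch 4 replicates 7, 8 and 9, against 0.758, 0.586, 0.698 and 0.869 CPM in DNMT1 KO. The batch 4 libraries thus overlapped with DNMT1 KO, whereas those of batches 1 and 2 did not. Within batches 1 and 2 with batch as a term, COL17A1 was called lower (-2.90, edgeR adjusted p = 0.00124), and the log2 ratio was -3.26 in batch 1 and -2.48 in batch 2. In that fit 7 collagen genes were called higher and 2 lower, against 7.37% and 6.98% of all genes tested. The 7 were the 8 of the fit over all libraries without COL26A1.

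The other tested genes of these classes were not called. COL7A1, which forms anchoring fibrils, COL12A1, which decorates fibrils, and COL18A1, a basement membrane multiplexin, had log2 fold changes of -1.02, -0.70 and -0.61, with edgeR adjusted p-values of 0.238, 0.333 and 0.358. COL18A1 shares 1563 exonic bases with SLC19A1, whose reads cannot be told apart from its own without a strand option. COL16A1, COL9A2 and COL9A3, further collagens that decorate fibrils, had values of 0.81, 0.033 and 0.33, with edgeR adjusted p-values of 0.216, 0.961 and 0.431. The membrane-spanning COL25A1 had the widest spread among DNMT1 KO libraries (0.606, 0.213, 2.44 and 0.0695 CPM), and its log2 fold change of 1.15 (edgeR adjusted p = 0.458, SE 0.91) turned to -0.35 without replicate 3.

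**Figure D2:**
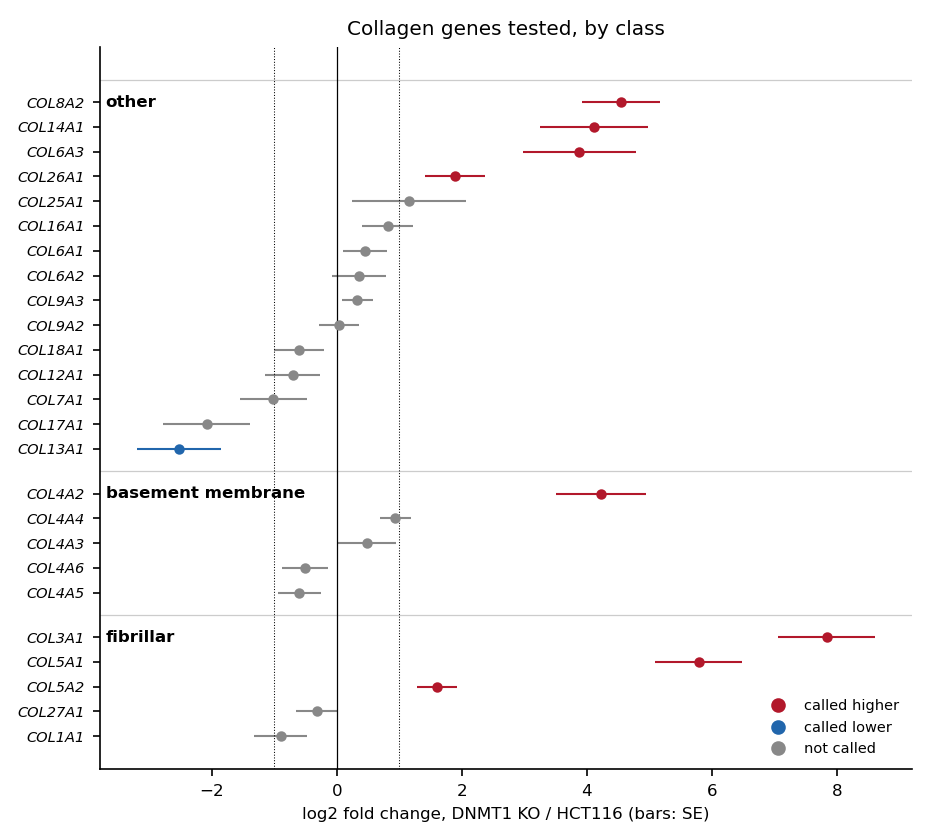
Log2 fold change of DNMT1 KO over HCT116 for the 25 collagen genes tested, ordered within their class, with bars of 1 SE and dotted lines at a log2 fold change of 1 and -1. The 8 genes called higher (red) range from 1.61 for COL5A2 to 7.84 for COL3A1, COL13A1 (blue) is at -2.53, and the remaining 16 (grey) lie between -2.08 and 1.15.

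The 19 genes below the filter were COL1A2, COL2A1, COL5A3, COL11A1, COL11A2 and COL24A1 of the fibrillar class, COL4A1 of the basement membrane class and COL6A5, COL6A6, COL8A1, COL9A1, COL10A1, COL15A1, COL19A1, COL20A1, COL21A1, COL22A1, COL23A1 and COL28A1 of the others. COL9A1, COL11A2 and COL22A1 had no counts in any library. Among the rest, COL15A1, a multiplexin, had 22, 18, 6 and 31 counts in DNMT1 KO and 0, 8, 4, 0, 0 and 0 counts in HCT116, and the ratio of summed levels was 11.5 (95% counting interval 6.22 to 23.2). DNMT1 KO replicate 3, at 0.0952 CPM, lay within the range of HCT116 for this gene.

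Levels were next compared between genes as RPKM, which is CPM divided by the exonic length in kilobases. In HCT116 the order was led by COL6A2 at 20.3 ± 12.2, COL6A1 at 18.6 ± 8.93, COL18A1 at 7.18 ± 3.77, COL12A1 at 4.74 ± 2.88 and COL9A3 at 1.88 ± 0.383 RPKM (SD, n = 6). In DNMT1 KO it was led by COL6A2 at 26.0 ± 13.2, COL6A1 at 25.5 ± 8.43, COL18A1 at 4.72 ± 1.89, COL12A1 at 2.91 ± 1.82 and COL9A3 at 2.35 ± 0.469 RPKM (SD, n = 4), followed by COL6A3 at 1.87 ± 1.13 and COL4A4 at 1.38 ± 0.330 RPKM. Among the leading 10 genes of HCT116, the ranges of neighbours in the order overlapped. In DNMT1 KO they overlapped except between COL6A1, whose lowest library was at 18.4 RPKM, and COL18A1, whose highest was at 7.49 RPKM, and between COL4A4 (lowest 1.06 RPKM) and COL9A2 (highest 1.03 RPKM). COL6A1 and COL6A2 together made up 62.3 ± 8.57% of the collagen RPKM in HCT116 (SD, n = 6) and 72.6 ± 1.74% in DNMT1 KO (SD, n = 4), and this range of 70.1 to 74.0% in DNMT1 KO overlapped with that of HCT116, 50.8 to 72.8%. COL6A3 made up 0.167 ± 0.198% in HCT116 and 2.53 ± 0.65% in DNMT1 KO. The fibrillar class held 3.86 ± 2.10% and 3.81 ± 1.30%, and the basement membrane class 3.60 ± 1.02% and 3.48 ± 0.465%. In RPKM, the genes called higher were a small part of collagen in either cell line, COL6A3 being the largest of them in DNMT1 KO. COL3A1, at 1.26 ± 1.01% of the collagen RPKM in DNMT1 KO and 0.00531 ± 0.00602% in HCT116, was the largest of those that were near 0 in HCT116. Dividing by the positions at which a 50-base read fits in an exon gave the same genes in the leading 4 places of each group. It placed COL6A1 above COL6A2 in DNMT1 KO. These positions count single reads, whereas the study's mapping settings required both mates of a pair to align together. The order and shares of genes were not corrected for that requirement.

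**Figure D3:**
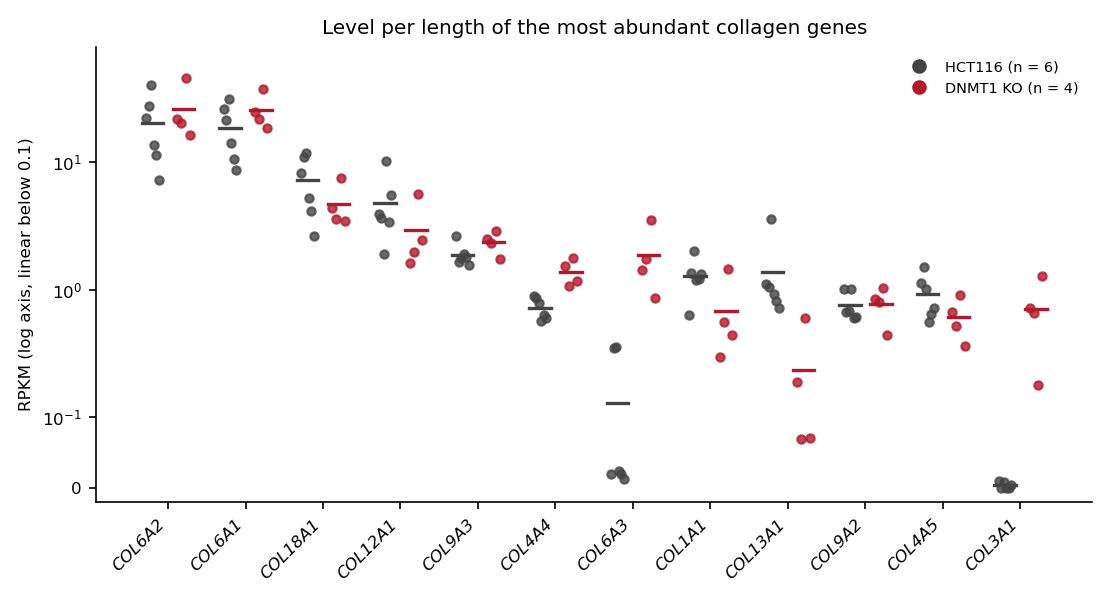
RPKM on a log axis that is linear below 0.1, for the 12 collagen genes that are among the 10 most abundant of either cell line by exonic length, with 1 point for each library and a line at the mean. COL6A1 and COL6A2 overlap between the cell lines at 7.27 to 45.5 RPKM, whereas COL6A3 and COL3A1 enter the order in DNMT1 KO alone.

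It was then asked whether genes whose chains assemble with each other, or whose start sites lie head to head, kept their ratio. The log2 ratio of counts plus 0.5 was compared between the groups for 6 pairs in which both genes were tested, by a two-sided exact permutation test over the 210 ways to assign the 10 libraries to the cell lines, whose smallest p is 0.00952, adjusted over the 6 pairs. For COL5A1 to COL5A2 no p is given: COL5A1 was at 0 counts in 3 HCT116 libraries and passed the filter through DNMT1 KO. Its ratio of -2.11 ± 0.55 in DNMT1 KO (SD, n = 4) was set against HCT116 ratios that depend on the added count, and the difference of 3.98 became 2.66 with 2 added counts. The ratio of COL6A1 to COL6A3 was 6.54 ± 1.78 in HCT116 (SD, n = 6) and 2.02 ± 0.45 in DNMT1 KO (SD, n = 4), and the groups differed by -4.52 (exact permutation p = 0.00952, adjusted 0.0286, or 0.0476 over the 5 pairs without COL5A1 to COL5A2). No library of one group fell within the range of the other. COL6A3 had already been called by the test of single genes, so this difference is no separate evidence. For COL6A1 to COL6A2 the ratios were -0.05 ± 0.28 and 0.04 ± 0.22 (difference 0.09, exact permutation p = 0.590 with n = 6 and n = 4), and the head-to-head pairs COL4A3 to COL4A4 and COL4A5 to COL4A6 differed by -0.38 and -0.08 (exact permutation p = 0.371 and 0.848). COL9A2 to COL9A3 differed by -0.32 (exact permutation p = 0.0381, adjusted 0.0762). COL4A1 to COL4A2 was not tested, since COL4A1 was below the filter.

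**Figure D4:**
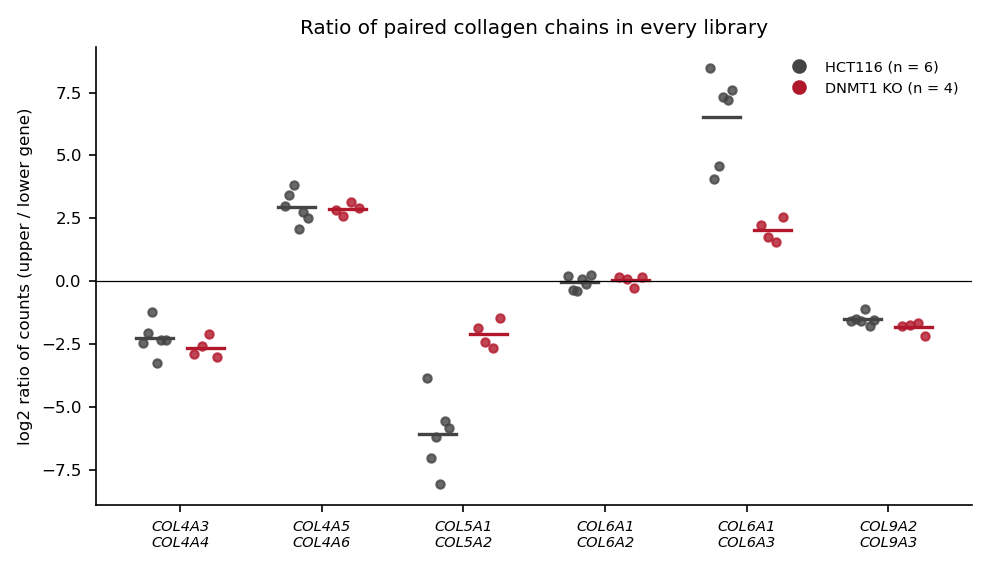
Log2 ratio of counts plus 0.5 of the upper to the lower gene of each of 6 pairs, with 1 point for each library and a line at the group mean. HCT116 (grey) and DNMT1 KO (red) lie apart for COL5A1 to COL5A2 and COL6A1 to COL6A3 and overlap for the other 4 pairs.

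The batches of HCT116 gave a measure of how far collagen genes moved within one cell line. Between batch 4 and batches 1 and 2 of HCT116, 20 collagen genes were tested. With edgeR 6 were called lower in batch 4, against 4.94% of all genes tested, and 0 were called higher, against 3.09%, with 1 higher at an unadjusted p under 0.05. COL6A3 (log2 fold change -3.73, edgeR adjusted p = 0.0130) and COL25A1 (log2 fold change -3.28, edgeR adjusted p = 0.0126) differed most, followed by COL17A1 (log2 fold change -2.81, edgeR adjusted p = 0.00453). COL6A2, COL18A1 and COL6A1 fell by 1.51, 1.40 and 1.25 on the log2 scale. These calls rested on few libraries, and their number ran from 1 to 8 when each HCT116 library was left out in turn. COL3A1, COL5A1, COL4A2, COL8A2 and COL14A1 did not pass the filter within HCT116. The DNMT1 KO library of batch 3 and the HCT116 libraries of batch 4 have no counterpart of the other cell line, so batch and cell line cannot be told apart for them.

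Genes that make, trim, bind or degrade collagen were counted from lists written with earlier results of these data known. All 20 genes of collagen biosynthesis were tested, 2 were called higher, against 7.42% of all genes tested, and their median log2 fold change was 0.063. The 2 were P3H2, a prolyl 3-hydroxylase, and P3H4, a partner of lysyl hydroxylase, at log2 fold changes of 1.66 (edgeR adjusted p = 0.0401, SE 0.52) and 1.15 (edgeR adjusted p = 7.36e-04, SE 0.20). P3H2 was at 0.271, 0.995 and 1.85 CPM in HCT116 and 4.57, 4.34, 1.30 and 2.78 CPM in DNMT1 KO, with overlap, and its call was lost without HCT116 replicate 1 or 3 or DNMT1 KO replicate 1, 2 or 4, at edgeR adjusted p-values of 0.0504 to 0.123. P3H4 rose from 30.1, 32.2 and 41.7 CPM to 90.9, 73.4, 76.1 and 63.6 CPM without overlap, a call lost within batch 2 alone (edgeR adjusted p = 0.102) and by glmTreat (edgeR adjusted p = 0.660). SERPINH1, the collagen chaperone HSP47, had a log2 fold change of 0.30 (edgeR adjusted p = 0.411).

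Of 14 genes of propeptide processing and crosslinking, 13 were tested. Of these, 3 were called higher and 4 lower (median 0.35), against 7.42% and 6.49% of all genes tested. TLL1, a protease that removes procollagen C-propeptides, its relative TLL2, and ADAMTS2, which removes N-propeptides, rose by log2 fold changes of 3.98 (SE 0.47), 2.10 (SE 0.32) and 1.35 (SE 0.34), with edgeR adjusted p-values of 2.81e-05 to 0.0120. ADAMTS2 lost its call within batch 2 alone (edgeR adjusted p = 0.0530). TLL1 was at 0.160, 0.643 and 1.24 CPM in HCT116 and 13.8, 8.65, 10.4 and 11.5 CPM in DNMT1 KO. The related N-proteinase gene ADAMTS14 moved the other way, from 13.6, 21.0 and 31.4 CPM to 0.253, 0.320, 2.67 and 0.278 CPM (log2 fold change -4.58, edgeR adjusted p = 2.26e-04), and its log2 fold change was -6.22 without DNMT1 KO replicate 3. PXDN, the peroxidase that crosslinks type IV collagen, was at 17.5, 34.4 and 60.6 CPM in HCT116 and held 2, 0, 2 and 6 counts in DNMT1 KO (log2 fold change -9.18, edgeR adjusted p = 5.69e-07, SE 0.72, and -10.29 without DNMT1 KO replicate 4). The lysyl oxidase gene LOXL4 fell by 1.78 on the log2 scale, a call lost without DNMT1 KO replicate 1, 2 or 4 at edgeR adjusted p-values of 0.0542 to 0.0684, and the fourth gene called lower was LOXL1.

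Of 9 collagen receptor genes, 6 were tested. Of these, 1 was called higher and 2 lower (median -0.73), against 7.42% and 6.49% of all genes tested. ITGB1, the shared beta chain of the collagen-binding integrins, was at 192, 341 and 736 CPM in HCT116 and 109, 138, 212 and 105 CPM in DNMT1 KO (log2 fold change -1.61, edgeR adjusted p = 0.00917, SE 0.39), and HCT116 replicate 1, the lowest of its group, fell within the range of DNMT1 KO. Of the alpha chain genes, ITGA11 was called higher and ITGA10 lower (2.49 and -1.83 on the log2 scale, edgeR adjusted p = 0.00597 and 0.0173). The call of ITGA10 was lost without DNMT1 KO replicate 1, 2 or 4 (edgeR adjusted p = 0.0585 to 0.0594) and within batch 2 alone (0.0927). That of ITGA11 was lost in replicates 1 to 3 without and with the replicate block (edgeR adjusted p = 0.0642 and 0.0784) and within batch 2 alone (0.128), and without DNMT1 KO replicate 3 its log2 fold change was 1.81. DDR1, a collagen receptor kinase, lies in the stretch of chromosome 6 without counts. Of 13 collagen-degrading proteases and inhibitors, 8 were tested and 1 was called, lower (median -0.40), against 6.49% of all genes tested. This was TIMP3, an inhibitor bound to the matrix, at 2.92, 6.36 and 13.5 CPM in HCT116 and 0, 0, 2 and 0 counts in DNMT1 KO (edgeR adjusted p = 2.61e-06), with a ratio of summed levels of 0.00175 (95% counting interval 2.11e-04 to 0.00631).

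Of 15 basement membrane partners of type IV collagen, 13 were tested. Of these, 2 were called higher and 3 lower (median -1.04), against 7.42% and 6.49% of all genes tested. The laminin genes LAMA3 and LAMB3, chains of the epithelial laminin to which hemidesmosomes attach, fell by 4.76 and 4.99 on the log2 scale, and LAMA4 fell by 5.22, with edgeR adjusted p-values of 2.26e-04 to 0.00267. Without HCT116 replicate 3 LAMA3 and LAMB3 were at -3.79 and -4.35, and without DNMT1 KO replicate 3 LAMA3 was at -5.93. LAMB3 was at 26.1, 63.8 and 433 CPM in HCT116 and 3.89, 3.82, 8.44 and 3.68 CPM in DNMT1 KO. LAMC3, a laminin gamma chain, rose from 5.27, 10.3 and 19.6 CPM to 48.8, 45.7, 83.0 and 55.4 CPM (edgeR adjusted p = 3.76e-04), and LAMA2 had a log2 fold change of 1.01 (edgeR adjusted p = 0.0178), which dropped below the fold limit without HCT116 replicate 3 (0.98), DNMT1 KO replicate 2 (0.75) or a filter (0.98). Over the 5 lists of collagen biology 60 genes were tested, and 8 (13.3%) were called higher and 10 (16.7%) lower, against 7.42% and 6.49% of all genes tested. With batches 1 and 2 and batch as a term 59 were tested, and 9 (15.3%) were higher and 18 (30.5%) lower, against 7.37% and 6.98%. In that fit the log2 fold changes of P3H2, TLL1, PXDN, LAMA3 and LAMA4 were 2.90, 5.18, -10.63, -5.40 and -6.31, each a fold more than 1.5 times that over all libraries. Of the genes called in these lists, ITGA11 passed the filter on low counts mainly through its DNMT1 KO libraries. PXDN, TIMP3 and LAMA4, near 0 in DNMT1 KO, passed it through HCT116. Their adjusted p-values are thus those of genes kept for being high in a single group, and are no separate evidence. The counts of calls therefore do not describe all genes of the lists.

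Marker genes of cell types were read beside the collagen genes. Over all genes tested, 7.42% were called higher and 6.49% lower. Of 8 colon epithelial markers, 7 were tested, 4 were called lower and 1 higher, and their summed level ran from 2520 to 6130 CPM in HCT116 and from 645 to 1431 CPM in DNMT1 KO. KRT8 was at 1075, 1746 and 2273 CPM in HCT116 and 310.2, 270.3, 157 and 303 CPM in DNMT1 KO, and CDH1, KRT18 and EPCAM were also lower, whereas VIL1 was higher from near 0 (0 counts in 5 of 6 HCT116 libraries). CDX2 and KRT19 were tested and not called, with overlap between the groups. CDX2 was at 18.0 to 41.4 CPM in HCT116 and 40.0, 35.5, 33.9 and 34.6 CPM in DNMT1 KO. KRT19 was at 517 to 1645 CPM in HCT116 and 738, 455, 190 and 569 CPM in DNMT1 KO. Of 8 fibroblast markers, 4 were tested. PDGFRB and FBLN1 (3.96 and 1.18 on the log2 scale) and LUM were called higher. The call of FBLN1 was lost by glmTreat (edgeR adjusted p = 0.775), within batch 2 alone (0.0556) and in replicates 1 to 3 without the replicate block (0.0676). LUM had a ratio of summed levels of 327 (95% counting interval 90.0 to 2713), with 2 counts over HCT116. TWIST1 was called lower, with 0 counts in all 4 DNMT1 KO libraries, or 159-fold lower against a floor of 3 counts over the group. The summed level of the 8 fibroblast markers ran from 10.3 to 21.4 CPM in HCT116 and from 27.4 to 41.5 CPM in DNMT1 KO. DCN, PDGFRA, THY1 and POSTN were below the filter. Of 6 endothelial markers, 3 were tested and PECAM1 and VWF were called higher (3.50, or 4.09 without HCT116 replicate 8, and 3.18), with summed levels of 0.349 to 1.98 CPM in HCT116 and 4.48 to 6.26 CPM in DNMT1 KO. VWF lost its call within batch 2 alone (edgeR adjusted p = 0.117). LUM, VIL1 and PECAM1 passed the filter mainly through DNMT1 KO and TWIST1 through HCT116, so their calls are no separate evidence of a difference. The part of these markers' differences in the collagen results was not tested.

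**Figure D5:**
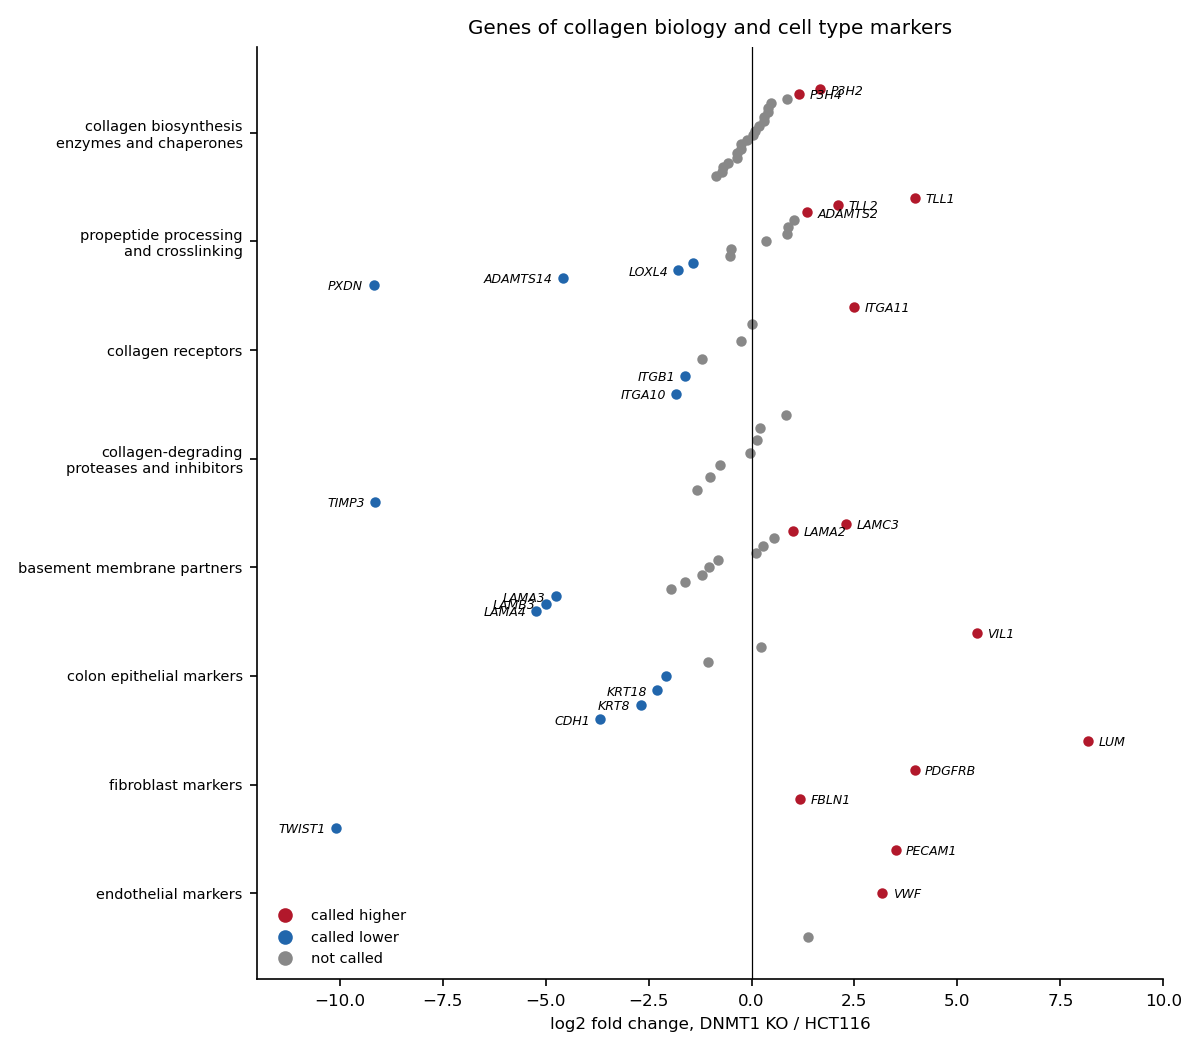
Log2 fold change of DNMT1 KO over HCT116 for every tested gene of the 5 lists of collagen biology and the 3 lists of cell type markers, with the genes named by rule labelled. Genes called higher (red) and lower (blue) occur together in 5 of the 8 lists, and the fitted values of TWIST1, PXDN and TIMP3, each near 0 counts in DNMT1 KO, lie farthest to the left.

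Genes near the collagen genes called higher were counted to see whether whole regions moved. Within 500 kb of the 8 genes, 77 neighbours were counted as tested, each gene once for each collagen gene it lies near, and 6 of them, or 7.79%, were called higher, against 7.42% of all genes, while 12, or 15.6%, were called lower, against 6.49% of all genes, 4 of them among the 8 tested neighbours of COL6A3. The 6 called higher include COL3A1 and COL5A2, which are neighbours of each other. No gene called higher lay within 500 kb of COL4A2, COL5A1 or COL6A3.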

How the data were processed

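Per the labels and the study's methods, the authors trimmed 50-base paired-end reads of poly(A)-selected RNA with Trim Galore 0.4.1 and mapped them with bowtie2, an unspliced aligner, to hg38. After a filter on mapping quality, featureCounts gave the deposited counts, which are not normalised. The library kit kept strand, but the featureCounts settings listed hold none for strand. Another 3 count tables, named for HCT116 replicates 4 to 6, match no labelled sample and were left out. The collagen genes, their classes and the gene lists were chosen with earlier results of these data known.

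The test was that of edgeR 4.0.16 under R 4.3.3 (TMM, filterByExpr, quasi-likelihood, group as the sole term, two-sided), with Benjamini-Hochberg adjustment over 19279 genes, and a gene was called where its adjusted p was below 0.05 and its fold change beyond 1 on the log2 scale. CPM and RPKM used TMM-scaled totals. The standard error is the fold change divided by the square root of F. Collagen genes past the filter are given with values, and of each list up to 3 called genes per direction. Counting intervals are exact binomial at 95%. Gene symbols and coordinates came from GENCODE release 44 and promoters from RefSeq (GRCh38). The test was checked on simulated counts. Alternatives were other size factors (RLE, library totals), filters, DESeq2 1.42.0, a likelihood ratio test, glmTreat, batch terms, single batches, a replicate block, halved counts and leaving out each library. Equal replicate numbers were not taken as pairs, since same-numbered libraries deviated with correlations of 0.46, -0.20 and 0.37.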

Additional observations from a re-analysis of the deposited data

Results flagged for a closer look

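Libraries were flagged by Dixon's rule, the gap to the next value over the range. For independent normal values its rate is about 1 in 20, or 5.25 of 105 groups. CPM near 0 are not such values and the groups share libraries, so the number flagged cannot be set against that rate. In groups of 4 or 6 libraries, 1 library lay far from the rest of its group for 14 of 105 groups examined. Among the collagen genes these were COL13A1 in HCT116 replicate 3 (21.0 CPM, against 4.18 to 6.53 in the other 5 libraries), COL14A1 in HCT116 replicate 3 (0.160 CPM, against 0 to 0.0451) and COL9A3 in HCT116 replicate 1 (12.7 CPM, against 7.55 to 9.21). DNMT1 KO replicate 3 was the highest of its group for ADAMTS14 (2.67 CPM, against 0.253 to 0.320), ITGA11 (1.71 CPM, against 0.379 to 0.586), LAMB3 (8.44 CPM, against 3.68 to 3.89) and LAMA3 (0.794 CPM, against 0.101 to 0.195), and it alone held counts of TIMP3 (0.0317 CPM). In HCT116, LAMA3 was at 29.4 CPM in replicate 3 (against 1.73 to 9.52), PDGFRB at 0.501 CPM in replicate 7 (against 0.226 to 0.294), VIL1 at 0.0557 CPM in replicate 7 and LUM at 0.0310 CPM in replicate 8, the last 2 being at 0 in the other 5 libraries. VIL1 in DNMT1 KO replicate 2 (0.817 CPM, against 0.505 to 0.556) and VWF in DNMT1 KO replicate 1 (3.64 CPM, against 2.36 to 2.56) were the highest of their group.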

How the results depend on the processing

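Against 8 collagen genes called higher and 1 lower, a minimum of 10 counts in every library, which removed the genes near 0 in HCT116, left 3 higher (4.78% of all genes in that fit), batch 2 alone, with 4 libraries, left 5 (4.17%), without COL5A2, COL14A1 and COL26A1, and glmTreat left 6 (3.86%), without COL5A2 and COL26A1. The number called lower was 0 with glmTreat (3.23% of all genes in that fit). Within batch 2 it was 1 (4.08%), which was COL17A1 and not COL13A1. It was 2 without a filter (4.39%), with DESeq2 (7.51%), with the likelihood ratio test (7.46%) and with batches 1 and 2 and batch as a term (6.98%). With batch as a term over all libraries (7.74%) it was 3, as it was without batch 4 (7.63%), an alternative chosen after seeing the data. The genes added were COL17A1 in each of these and COL18A1 where 3 were lower. Leaving out each library in turn gave 7 to 9 higher (6.09 to 8.26% of all genes) and 0 to 2 lower (4.95 to 6.63%). COL13A1 was lost without DNMT1 KO replicate 1, 2 or 4. COL17A1 was gained without HCT116 replicate 7, 8 or 9, and COL1A1 without DNMT1 KO replicate 3. The numbers do not pair the libraries. The replicate block over replicates 1 to 3 gave 7 higher (6.59% of all genes) and 3 lower (6.61%). The same libraries without the block gave 7 higher (6.27%) and 1 lower (6.14%). Over the lists of collagen biology the block gave 8 higher and 19 lower, against 8 and 16 without it. Those lists had 8 higher and 10 lower in all libraries. With glmTreat they had 4 and 6 (3.86% and 3.23% of all genes). The calls lost by glmTreat included P3H2, P3H4, ADAMTS2 and LAMA2 among those higher and ITGB1, LOXL4 and ITGA10 among those lower. In other settings these lists changed as well. They had 4 higher with batch 2 alone (4.17%) and 3 lower with at least 10 counts in every library (4.99%). With batch as a term 18 were lower, over all libraries (7.74%) or batches 1 and 2 (6.98%). Without batch 4, 19 were lower (7.63%). Between HCT116 batches, 1 collagen gene was called higher without a filter, and leaving out each library gave 1 to 8 lower, with 1 without HCT116 replicate 2 or 9, 2 without replicate 8 and 3 without replicate 7.

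Directions turned only for genes and ratios that were not called: the log2 fold change was 0.45 for COL12A1 within batch 2, and -0.0089 for COL4A3, -0.034 for COL6A1, -0.21 for COL6A2 and -0.0084 for COL9A2 without batch 4. For COL6A2 it was -0.033 with batch as a term over all libraries, -0.031 over batches 1 and 2 with that term and in replicates 1 to 3 without the block, -0.032 within batch 2 and -0.089 with the block. Leaving out each library, it ran from -0.35 to 1.62 for COL25A1, -0.051 to 0.70 for COL6A2 and -0.10 to 0.22 for COL9A2. The difference in the ratio of COL6A1 to COL6A3 was -2.67 within batch 2 and that of COL4A5 to COL4A6 -0.78. The adjustment over 5 pairs was chosen after seeing the data. Leaving out each library, differences ran from 3.59 to 4.43 for COL5A1 to COL5A2, -5.02 to -4.13 for COL6A1 to COL6A3, -0.25 to 0.10 for COL4A5 to COL4A6 and -0.38 to -0.21 for COL9A2 to COL9A3; without a DNMT1 KO library the 6 pairs allow 84 assignments of the libraries, too few for an adjusted p under 0.05 when 2 of them reach the smallest p. Of 592 values of single collagen genes under the alternatives, 539 kept their direction and their side of the threshold, 17 lost a call, 21 gained one and 15 turned direction. Where the cause is not in the alternative's construction, it was not tested. Depth limits the genes near 0 in HCT116, whose fitted folds rest on 5 to 14 counts.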
